A study of Mus musculus with 19 samples.

Results

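The mouse miRNAs described here are the late entries of the miRNA registry, those with a high number in their name. They were chosen by name alone, as every mouse probe set named miR-N with N from 1891 upwards, whatever its letter or arm, and no measured value entered the choice. This gave 263 of the 1136 miRNAs on the array, with numbers from 1892 to 5136. They were set against the 559 mouse miRNAs with a number under 500, called low-numbered below. Mature miRNAs had been measured with a single dye in whole pieces of 3 tissues: the nucleus accumbens of the forebrain, which takes part in motivation, the slow soleus muscle of the hindlimb, and its fast extensor digitorum longus (EDL). The mice were males of the inbred strains C57L/J, called high-active for their wheel running, and C3H/HeJ, called low-active. All were 9 weeks old, carried no transgene, and had lived alone for a week with a running wheel that was locked. They received no agent but the isoflurane that anesthetized them before they were killed. High-active mice gave 4 nucleus accumbens, 4 soleus and 2 EDL arrays and low-active mice gave 3, 2 and 4, for a total of 19. These used 8 mice, named by number in the labels, and lay on 3 slides that each held all 3 tissues.

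A miRNA is a short RNA that guides a silencing complex to messenger RNAs, mainly by pairing through its seed, the bases near its 5′ end. Registry numbers follow the order of discovery, so low numbers mostly mark miRNAs found by cloning or conservation, and high numbers mostly mark those first seen by deep sequencing of small RNA. Late entries are on average less conserved and less abundant, and some were later renamed or withdrawn, often after their reads were traced to other classes of RNA.

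Of the 263, 57 had no sequence in the RefSeq table of build GRCm38.p6 and the rest were matched by name. The first set is shown because these 3 miRNAs were well above background on every array and carry the letters AUCCCA, which only 4 of 867 mature mouse miRNAs with a sequence, 0.461%, hold on the mature strand. The fourth is the low-numbered miR-191-5p. Capitals mark the seed, bases 2 to 8 from the 5′ end. miR-3963 lies at chr3:151023839-151023857 (minus strand), miR-3968 at chr11:115447969-115447989 (minus) inside Trim80, and miR-5100 at chr11:60728698-60728718 (plus) inside Mief2.
miR-3963: uGUAUCCCacuucugacac
miR-3968: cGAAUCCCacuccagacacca
miR-5100: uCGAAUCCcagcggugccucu

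The second set is shown because its 3 miRNAs were also on every array and share the letters GAGAUGGCU, held by no other mature miRNA with a sequence (3 of 867, 0.346%). They were chosen after their values were seen. miR-3473a lies at chrX:162874920-162874937 (minus) inside Syap1, miR-3473b at chr10:41670774-41670793 (plus) inside Ccdc162, and miR-5128 at chr2:37688212-37688234 (minus) inside Strbp. miR-3473a and miR-3473b have 16 letters in a row in common.
miR-3473a: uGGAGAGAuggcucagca
miR-3473b: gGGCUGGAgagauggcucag
miR-5128: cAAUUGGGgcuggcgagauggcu

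The third set is shown for its letters in common with better known miRNAs. miR-3962 at chr1:194822035-194822054 (plus) has 17 letters in a row in common with let-7g-5p, of the widely expressed let-7 family. miR-3097-5p at chr5:35021050-35021072 (plus, inside Rgs12) has 11 in common with miR-206-3p, a skeletal muscle miRNA, and miR-3082-5p at chr17:25831406-25831427 (minus) has 12 in common with miR-574-5p.
miR-3962: aGGUAGUAguuuguacauuu
miR-3097-5p: cACAGGUGggaagugugugucca
miR-3082-5p: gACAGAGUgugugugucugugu

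The fourth set gives 3 miRNAs that were higher in the nucleus accumbens than in muscle. miR-3069-3p lies at chr12:105031078-105031099 (minus) inside the non-coding genes Snhg10 and Scarna13, miR-3099-3p at chr7:6803638-6803659 (plus) inside Usp29, and miR-3102-3p at chr7:100882307-100882329 (minus).
miR-3069-3p: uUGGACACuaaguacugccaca
miR-3099-3p: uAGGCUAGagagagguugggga
miR-3102-3p: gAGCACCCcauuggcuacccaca

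The last pair shows the G and C rich end of the list. miR-2861 lies at chr2:32712819-32712837 (minus) and miR-5126 at chr1:84695890-84695911 (plus) inside Dner. All 22 bases of miR-5126 are G or C.
miR-2861: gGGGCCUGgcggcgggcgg
miR-5126: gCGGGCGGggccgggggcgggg

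Among the 206 late-numbered and 459 low-numbered miRNAs with a sequence, no late-numbered one equalled or contained a low-numbered one. miR-3107-5p and miR-3107-3p had none and were not compared. The late-numbered miRNAs with a sequence had a median G and C content of 54.5%, against 45.5% for the low-numbered ones. Content differed with detection. Over the 149 found on no array the median was 52.4%, and over the 22 found on every array it was 64.3%, with 8 of the 22 over 70%. Of 102 low-numbered miRNAs on every array, 0 were over 70% and their median was 46.7%. Of the 22 late-numbered ones, 16 lay inside a protein-coding gene, against 163 over all with a sequence.

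Skeletal muscle markers stood where the labels put them, with a summed log2 signal of 18.7 to 19.6 in both muscles against 8.75 to 11.05 in the nucleus accumbens. There miR-208b-3p and miR-499-5p were on no array and miR-206-3p on 1. miR-1a-3p, miR-133a-3p and miR-133b-3p were on all 7, at means of 7.61, 7.12 and 7.56. In the EDL miR-208b-3p was also on no array. The 7 brain markers were on every nucleus accumbens array, at no less than 16.5 against 9.92 to 11.4 in muscle. Of these, miR-128-3p was also on every muscle array, at means of 11.08 in the soleus and 10.51 in the EDL. The 6 others were on no EDL array and on at most 2 soleus arrays. The 7 epithelial markers were uneven among the nucleus accumbens arrays, with a summed signal of 7.37 to 14.3, and the array of low-active mouse 195 in the EDL was the dimmest of all, at 502 fluorescence units. Precision is limited by how few arrays there are.

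A smaller share of the late-numbered than of the low-numbered miRNAs was found in these tissues. A miRNA counts as found on an array when more than 50% of the spots of at least 1 of its probes were marked by the scanner software as well above background. Of the 263, 177 (67.3%) were found on no array, 86 (32.7%) on at least 1, and 31 (11.8%) on all 19. Of the 559 low-numbered miRNAs, 239 (42.8%) were found on no array and 22.2% on all. In these whole tissues, fewer cells of a type and less RNA per cell cannot be told apart.

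The tissues differed. Among the late-numbered miRNAs 32 (12.2%) were found in muscle alone and 3 (1.14%) in the nucleus accumbens alone, and 51 in both. Among the low-numbered ones 32 (5.72%) were found in muscle alone and 96 (17.2%) in the nucleus accumbens alone. miR-3107-3p, miR-3095-3p, miR-5113, miR-5115 and miR-5130 were found on all 12 muscle arrays and on no nucleus accumbens array. miR-3475 was the one late-numbered miRNA found on all 7 nucleus accumbens arrays and no muscle array, a class that held 48 low-numbered miRNAs. Of the 32 late-numbered miRNAs in muscle alone, 14 (5.32% of the list) were found in the soleus alone and 1 (0.38%), miR-3106-5p, in the EDL alone. Among the low-numbered ones 4 (0.716%) and 5 (0.894%) were. Some of these finds rest on 1 array, such as those of miR-1960, miR-3059-3p and miR-3106-5p.

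Detection also differed along the numbering. Of the 77 miRNAs from miR-1892 to miR-1983, 21 (27.3%) were found on at least 1 array, as were 2 of the 6 from miR-2136 to miR-2861 (33.3%). Of the 139 from miR-3057 to miR-3971 41 were found (29.5%), and of the 41 from miR-5046 to miR-5136 22 (53.7%). The 107 names without an arm were found more often (43.0%, 20 of them on every array) than the 80 named 5p (26.3%) and the 76 named 3p (25%). These shares describe the list and were not tested. The 57 viral miRNAs on the array, which an uninfected mouse should lack, give a background measured the same way: 48 were found on no array, 1 on every array, and 3.51% to 12.3% on a single array. The median viral share was 7.02% in the nucleus accumbens, 8.77% in the soleus and 9.65% in the EDL. The viral ranges overlapped, at 3.51% to 10.5%, 5.26% to 10.5% and 8.77% to 12.3% in the same order, and were not tested. A lower share in the nucleus accumbens need thus not be particular to the late-numbered miRNAs. The part of this background in their tissue difference was not tested.

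On a single array, 16.7% to 19.8% of the late-numbered miRNAs were found in the nucleus accumbens, 18.3% to 29.7% in the soleus and 19.8% to 24.7% in the EDL. For the low-numbered miRNAs the order of the tissues was the opposite, with 42.9% to 48.3% in the nucleus accumbens and 25.9% to 37.7% in muscle. In each of the 7 mice with both tissues, fewer late-numbered miRNAs were found in the nucleus accumbens than in its muscle, by 1.52 points in mouse 223 up to 8.75 points in mouse 224. The mean difference was -5.11 ± 2.38 percentage points (SD, n = 7, exact two-sided sign-flip permutation test, p = 0.0156, the smallest that 7 mice allow). The low-numbered share was higher in the nucleus accumbens in all 7 mice, by 8.86 to 17.2 points and on average by 11.9 ± 2.59 (SD, n = 7, exact p = 0.0156). The gap between the lists thus moved by -16.99 ± 2.501 points from muscle to nucleus accumbens, again in the same direction in 7 of 7 mice (exact p = 0.0156).

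**Figure D1:**
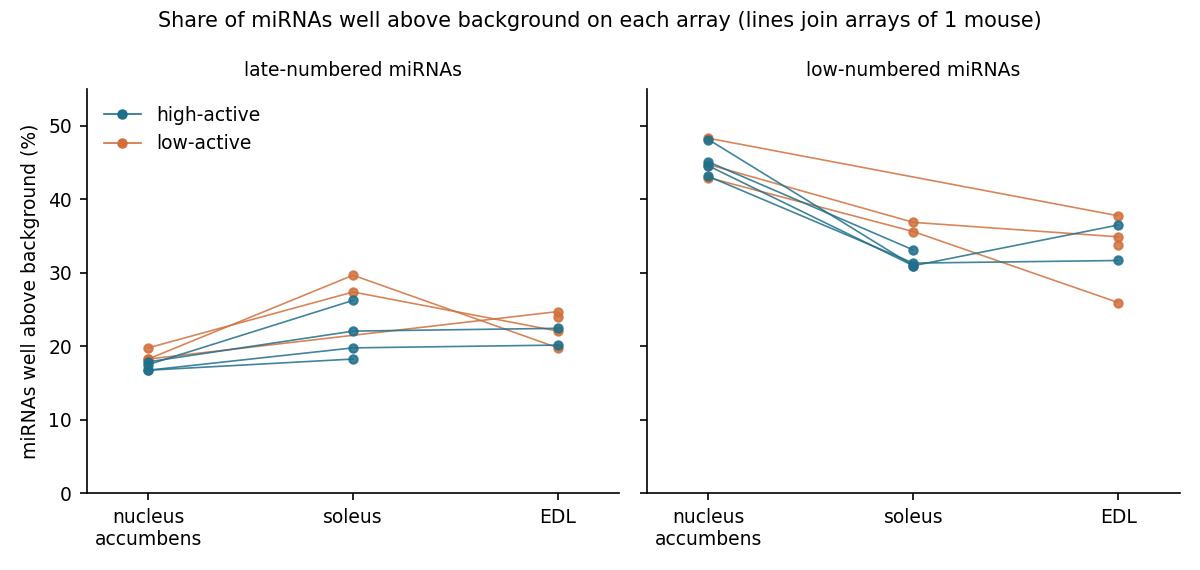
Share of miRNAs well above background on each array (vertical axis, percent) by tissue, for the 263 late-numbered (left) and the 559 low-numbered miRNAs (right). Each point is an array, coloured by strain, and lines join the arrays of a mouse. The late-numbered share falls to 16.7% to 19.8% in the nucleus accumbens, where the low-numbered share rises to 42.9% to 48.3%.

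The same order held within each slide. The mean late-numbered share was 19.8% in the nucleus accumbens and 22.9% in muscle on slide 1, 18.1% and 23.9% on slide 2, and 17.3% and 21.8% on slide 3. The 75th percentile of the signal over the low-numbered probes found on all 19 arrays was 1087 to 2699 fluorescence units in the nucleus accumbens, 837 to 1799 in the soleus and 528 to 1670 in the EDL. These ranges overlapped, and in mice 194, 195 and 197 a muscle array was brighter than that of the nucleus accumbens. The part of brightness in the tissue difference was not tested. Between the muscles, the share was higher in the soleus in mice 194 and 195 and lower by 0.38 points in mice 225 and 227. The mean difference of 3.61 ± 4.97 points (SD, n = 4) was within the spread of the mice (exact sign-flip permutation p = 0.5, smallest possible 0.125).

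Levels were compared between tissues as log2 signals, after each array had been divided by its 75th percentile over the 328 probes found on all 19 arrays. Signals under the level that a probe well above background reaches were set to that level, 4.41 on the log2 scale, so 4.41 stands for that level or less. Each miRNA took the value of 1 probe, so signals of different miRNAs come from different probes and do not measure their relative amounts. Of the 31 late-numbered miRNAs found on every array, 23 were lower in the nucleus accumbens than in the soleus at an adjusted p under 0.05 in limma, where 44.6% of all 184 miRNAs on every array were lower. 1 was higher, miR-3069-3p, where 38.0% of all were higher. Against the EDL the counts were again 23 lower and 1 higher, where 43.5% of all were lower and 37.5% were higher. Of the low-numbered miRNAs on every array, 57 were higher and 49 lower in the nucleus accumbens than in the soleus, and 56 and 46 against the EDL.

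The median difference of the 31 was -1.17 from soleus to nucleus accumbens on the log2 scale, against 0.15 for the low-numbered miRNAs and -0.17 for all 184. From EDL to nucleus accumbens it was -1.10, against 0.12 and -0.19. The scaling set part of these values. Under quantile normalization the medians of all 184 moved to -0.69 for both comparisons, and with the percentile taken over all probes to -0.72 and -0.84, and the low-numbered medians then lay below 0. The late-numbered median minus that of all miRNAs lay between -1.19 and -0.92 in both comparisons under the 4 scalings tried. Apart from quantile normalization, these scalings shift all miRNAs of an array alike, so this value could not change between them. Under quantile normalization it was -1.19 in both comparisons. Between 18 and 30 of the 31 passed as lower under the 4 scalings. miR-3069-3p did not pass as higher than in the EDL under quantile normalization or with the percentile taken over all probes.

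**Figure D2:**
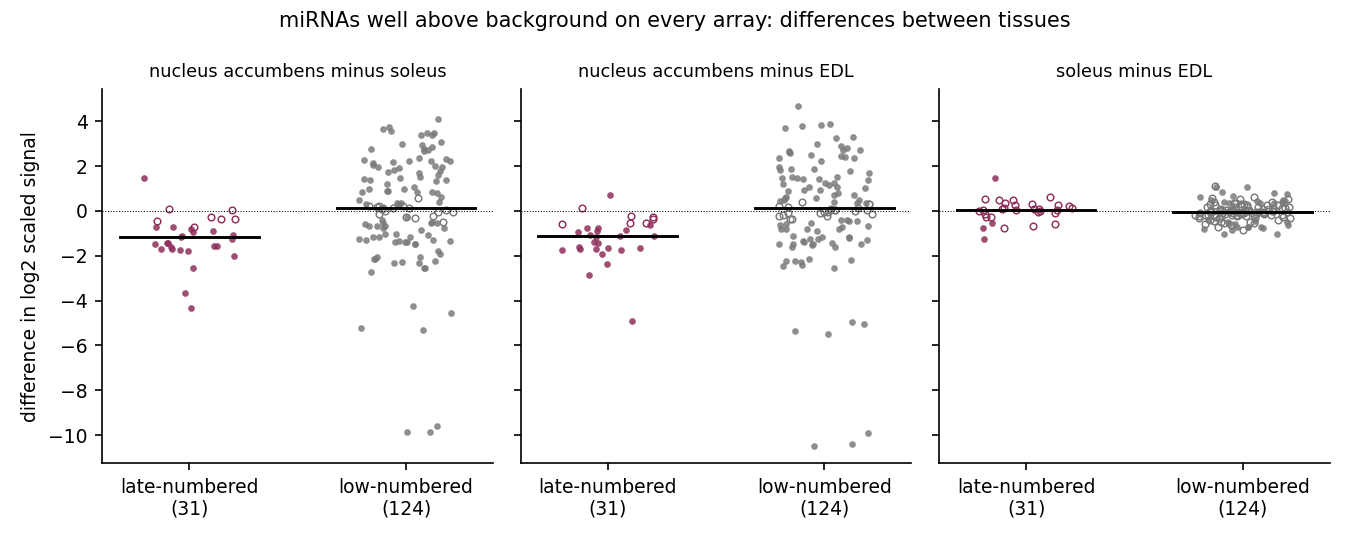
Differences in log2 scaled signal between tissues (vertical axis) for the 31 late-numbered and the low-numbered miRNAs found on every array. Each circle is a miRNA, filled where it passed the test (adjusted p under 0.05) and open where it did not, and the bars are medians. In both comparisons with the nucleus accumbens the late-numbered median lies below 0 (-1.17 and -1.10), and between the muscles it lies at 0.04, which turned to -0.07 with the percentile taken over all probes.

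The test was also run on the miRNAs found on at least 6 of the 19 arrays, 407 in all and 67 of the 263. Members of the list can enter it through muscle alone, so these counts describe the test and carry no weight for the direction. From soleus to nucleus accumbens 44 were lower and 8 higher, where 35.6% of all were lower and 48.9% higher. Against the EDL 39 were lower and 8 higher, where 34.6% and 49.9% were. The remaining 196 late-numbered miRNAs were not tested.

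The miRNAs with AUCCCA were all lower in the nucleus accumbens. miR-3963 had a log2 signal of 13.48, 14.68 and 15.23 (lowest, median, highest of 7 arrays) in the nucleus accumbens, 15.62, 15.94 and 17.49 (of 6) in the soleus and 15.99, 16.27 and 16.54 (of 6) in the EDL. All 12 muscle arrays lay above all 7 nucleus accumbens arrays. The difference was -1.43 (SE 0.27) from the soleus and -1.69 (SE 0.27) from the EDL in limma, with adjusted p of 9.87e-05 and 1.81e-05.

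miR-5100 stood at 8.91, 10.54 and 11.84 in the nucleus accumbens, 11.61, 12.47 and 14.96 in the soleus and 12.52, 12.87 and 14.01 in the EDL. The ranges of nucleus accumbens and soleus overlapped. It was lower in the nucleus accumbens by -1.79 (SE 0.48) and -2.38 (SE 0.48). miR-3968 stood at 10.29, 11.60 and 12.84, then 11.99, 12.48 and 14.46, then 12.86, 13.35 and 14.12, and differed by -0.88 (SE 0.38, adjusted p = 0.0387) and -1.65 (SE 0.38, adjusted p = 0.00067). In the soleus the highest value of all 3 was that of high-active mouse 223, the dimmest soleus array.

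The miRNAs with GAGAUGGCU were lower in the nucleus accumbens as well. miR-3473b stood at 8.54, 8.88 and 9.37 in the nucleus accumbens, 10.19, 10.62 and 11.07 in the soleus and 9.83, 10.65 and 12.15 in the EDL, with no overlap between the brain region and either muscle. miR-3473a showed the same separation, at 6.27 to 6.86 against 7.64 to 8.48 and 7.46 to 9.30. Their differences ran from -1.39 to -1.76. miR-5128 stood at 5.52, 5.57 and 6.22 in the nucleus accumbens, against 8.26, 9.45 and 11.78 in the soleus and 7.15, 9.12 and 10.9998 in the EDL. It differed by -4.33 (SE 0.43) and -2.85 (SE 0.43), and its arrays within each muscle spread over more than 3 log2 units. With the signal per miRNA that the scanner software sums, the difference of miR-5128 from the EDL turned to 0.55. Its difference from the soleus ranged from -4.91 to -0.82 over 12 other settings, and 11 of them kept the call.

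miR-3107 had the largest difference from the EDL among the 31. miR-3107-5p stood at 5.71, 6.56 and 8.04 in the nucleus accumbens, 10.08, 10.55 and 10.92 in the soleus and 10.71, 11.73 and 12.35 in the EDL. It was 12.7-fold lower in the nucleus accumbens than in the soleus (log2 difference -3.67, SE 0.26) and 29.9-fold lower than in the EDL (-4.90, SE 0.26), with adjusted p of 4.62e-10 and 7.68e-12 in limma over the 184. On no nucleus accumbens array was miR-3107-3p well above background. It stood at 6.23 to 7.19 in the soleus, at least 5.23-fold higher, and at 7.27 to 8.26 in the EDL, at least 10.5-fold higher.

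Both arms were also lower in the soleus than in the EDL, the 3p arm by -1.03 (SE 0.18, adjusted p = 0.000497) and the 5p arm by -1.23 (SE 0.28, adjusted p = 0.00363). The Mir3107 gene spans chr8:23142573-23142662 and its 90 bases lie wholly inside Mir486 at chr8:23142555-23142682. Both lie in Ank1, an ankyrin gene that is active in muscle and red cells. miR-486-3p, a muscle-enriched miRNA, was likewise on all 12 muscle arrays and no nucleus accumbens array, and the log2 signal of miR-3107-3p minus that of miR-486-3p stayed between -0.27 and -0.13 over the 12 (mean -0.21 ± 0.05, SD). Whether the probes of the pair can tell the 2 RNAs apart was not tested.

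Among miRNAs found on most arrays, miR-3082-5p stood at 4.41, 4.69 and 5.05 in the nucleus accumbens and at 7.03 to 8.88 and 7.10 to 8.72 in the muscles, a fitted difference of -3.03 and -2.86. It was at 4.41 on 3 of the 7 nucleus accumbens arrays, so these sizes are lower limits. miR-574-5p, with which it has 12 letters in common, stood at 5.60 ± 0.32 (SD, n = 7), 8.68 ± 0.49 (n = 6) and 8.51 ± 0.64 (n = 6), so both were higher in muscle. miR-3470a (4.41 to 5.26 against 6.88 to 8.25 and 6.23 to 8.75) and miR-3472 (4.41 to 5.05 against 6.19 to 8.53 and 5.05 to 8.64) moved the same way. miR-3097-5p was found on all 6 soleus arrays, at 4.49, 5.57 and 6.38, and on no other array. This gives a level at least 1.65-fold higher in the soleus than in the EDL (adjusted p = 0.000254). It entered the test through the soleus alone and stood at 4.41 on every EDL array, so this p carries no weight for the direction. miR-206-3p, with which it has 11 letters in common, stood at 15.07 ± 0.53 in the soleus, 11.67 ± 0.49 in the EDL and 4.67 ± 0.69 in the nucleus accumbens. Whether probes with such letters in common pick up each other's RNA was not tested.

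Few late-numbered miRNAs were higher in the nucleus accumbens. miR-3069-3p stood at 7.55, 7.78 and 8.09 there, at 6.16, 6.33 and 6.85 in the soleus and at 6.27, 7.09 and 7.53 in the EDL, and no muscle array reached the lowest nucleus accumbens array. It was higher by 1.47 (SE 0.15) than in the soleus and by 0.70 (SE 0.15) than in the EDL, and lower in the soleus than in the EDL by -0.77 (SE 0.16, adjusted p = 0.00253). miR-3099-3p stood at 6.49, 7.29 and 7.98 against 4.65 to 6.03 and 4.48 to 6.72, a difference of 1.83 (SE 0.25) and 2.06 (SE 0.25). 1 EDL array, that of low-active mouse 195, lay inside its nucleus accumbens range.

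miR-3475 was found in the nucleus accumbens alone, at 5.31, 5.52 and 6.35, at least 1.95-fold above the soleus and 1.78-fold above the EDL. miR-3102-3p stood at 5.87 to 6.32 in the nucleus accumbens and at 4.41 to 5.21 in muscle, but with the software's signal per miRNA its differences turned to -4.24 and -1.95. The partner arm miR-3102-5p went the other way with the spot signals, lower in the nucleus accumbens by -1.58 (SE 0.17) and -1.59 (SE 0.17). miR-3962 stood at 6.12 to 6.64 in the nucleus accumbens, 5.12 to 5.72 in the soleus and 4.84 to 5.59 in the EDL, but with the software's signal its difference from the EDL turned to -2.73. let-7g-5p, which has 17 letters in common with it, was also higher in the nucleus accumbens, at 13.54 ± 0.13 (SD, n = 7) against 12.76 ± 0.18 (n = 6) and 12.66 ± 0.18 (n = 6).

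**Figure D3:**
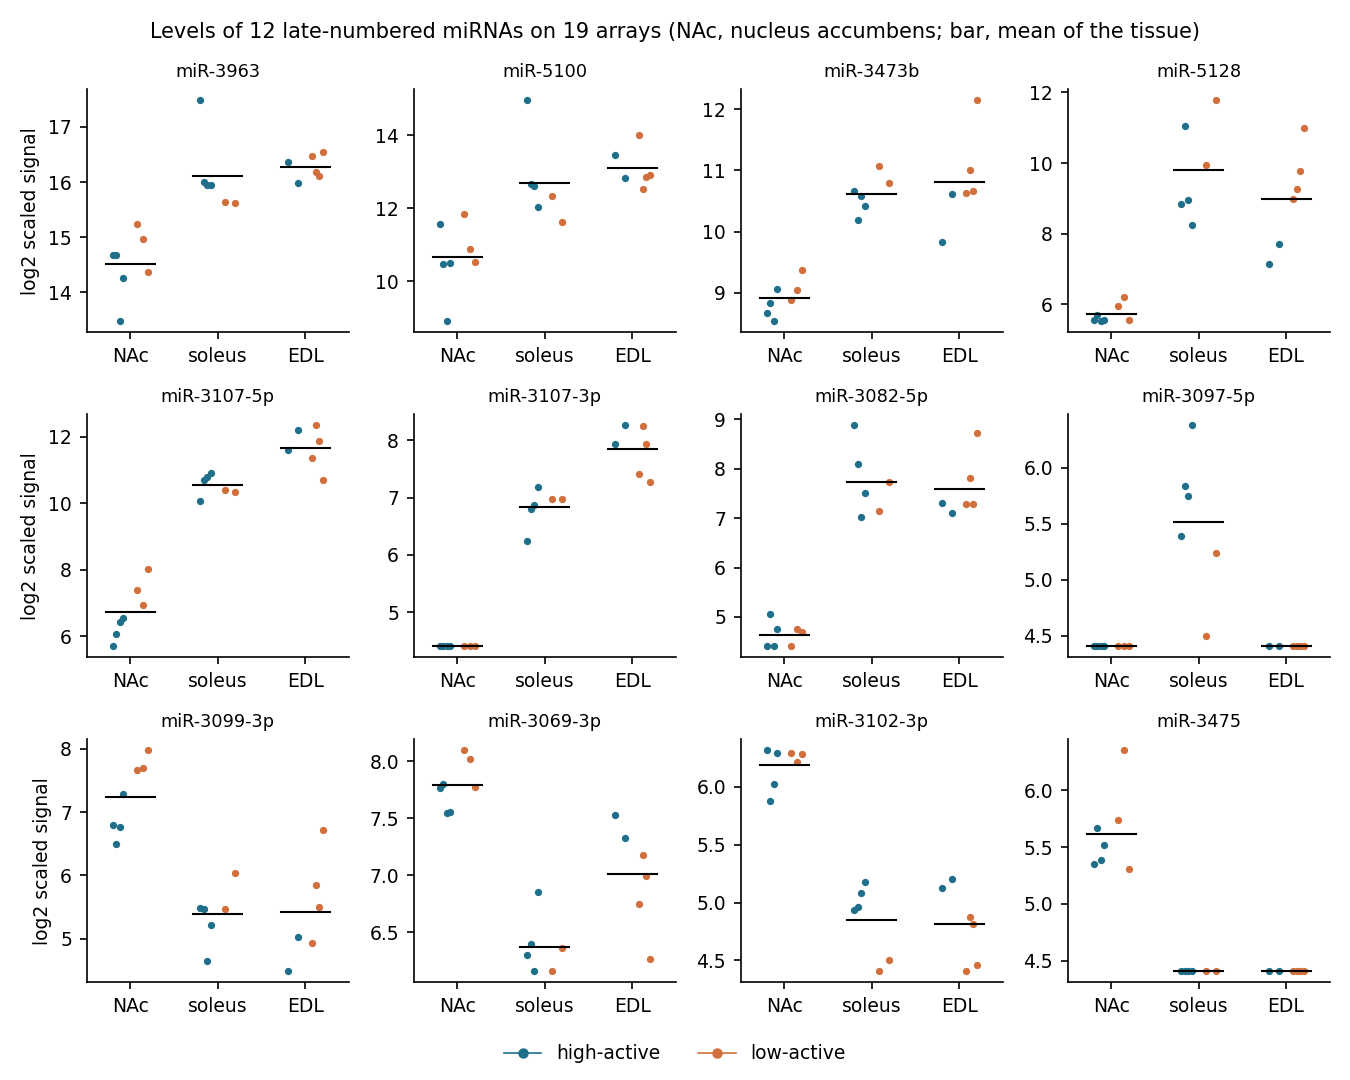
Log2 scaled signal (vertical axis, a different range in each panel) of 12 late-numbered miRNAs on the 19 arrays, by tissue. Each point is an array, coloured by strain, the bars are tissue means, and 4.41 is the level to which lower signals were set. miR-3963 to miR-3082-5p in the upper panels lie lower in the nucleus accumbens, miR-3097-5p rises above 4.41 in the soleus alone, and the lower 4 panels lie highest in the nucleus accumbens.

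Of the remaining members of the 31, miR-5112 was lower in the nucleus accumbens by -2.56 (SE 0.26) and -1.93 (SE 0.26). miR-5109 stood at 11.02 to 12.05 in the nucleus accumbens and 11.19 to 12.75 over the muscles, and miR-1906, miR-2137, miR-5097, miR-5105 and miR-5122 also passed neither comparison with the nucleus accumbens. miR-5126, of G and C alone, was lower by -2.01 (SE 0.23) and -1.76 (SE 0.23), and miR-2861 by -1.17 (SE 0.19) and -1.10 (SE 0.19).

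Between soleus and EDL, 1 of the 31, miR-5128, was higher in the soleus, where 9.24% of all were higher, and miR-3069-3p, miR-3096b-3p and miR-3107-5p were lower, where 10.9% of all were lower. Over the 67 tested at 6 or more arrays, 4 were higher and 4 lower, where 7.62% and 10.6% of all were. This split followed the scaling and single arrays. It was 20 higher and 0 lower without scaling, 10 and 3 after quantile normalization, 15 and 4 without the array of low-active mouse 195 in the EDL, and 0 and 3 without its soleus array. With the mouse as a fixed block, which pairs the tissues of an animal, 5 of the 67 passed in place of 8.

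The share found was then set against the brightness of the array. Brightness is the 75th percentile of the unscaled signal over the low-numbered probes found on all arrays of the tissue. In the soleus the arrays in order of brightness (678, 925, 947, 1062, 1409 and 1419 units) held 18.3%, 19.8%, 22.1%, 26.2%, 27.4% and 29.7% of the late-numbered miRNAs, so the share was higher on each brighter array. Pearson's r was 0.936 (exact permutation p = 0.00694, 0.0208 after Benjamini-Hochberg adjustment over 6 relations) and Spearman's rho 1 (p = 0.00278, adjusted 0.0167). Without the 2 arrays farthest from the median brightness r was 0.857. Leaving out high-active mouse 223, 225 or 227 or low-active mouse 195 took the adjusted p to 0.05 or above. The brightest pair were both low-active arrays, so strain and brightness cannot be told apart there.

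In the EDL the shares were 19.8%, 20.2%, 22.1%, 24.0%, 22.4% and 24.7% at 502, 867, 1211, 1250, 1335 and 1466 units. The r was 0.850 (exact permutation p = 0.0125, adjusted 0.0208), rho was 0.943 (p = 0.0167, adjusted 0.025), and r without the 2 farthest arrays was 0.659. With 5 arrays left, the adjusted p was between 0.05 and 0.09 whichever EDL array was left out, at an r of 0.831 to 0.883. With the median of all probes as the brightness r was 0.425 in the EDL and 0.797 in the soleus, and neither passed. In the nucleus accumbens, between 645 and 1654 units, no relation was detected, with r of -0.43 (exact p = 0.302, adjusted 0.302), rho of -0.273 (p = 0.552, adjusted 0.552) and r of -0.167 without the 2 farthest. It was 0.0108 with the median of all probes. The low-numbered share had r of 0.693, 0.903 and 0.982 in the nucleus accumbens, soleus and EDL (adjusted p = 0.0774, 0.0208 and 0.0167) and rho of 0.893, 0.841 and 0.943. A slide held at most 4 arrays of a tissue, too few for the relation within slides.

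Levels were set against brightness in the same way, as a description with no test. For each miRNA found on every array of a tissue, the slope of its unscaled log2 signal on log2 brightness was taken, so that 1 means that it followed the array and 0 that it did not. The median slope of 37 late-numbered miRNAs in the nucleus accumbens was 0.20, with 31 of them under 0.5, against 0.85 for 222 low-numbered ones. In the EDL it was 0.02 over 44, with 35 under 0.5, against 0.97 for the low-numbered ones. In the soleus it was 1.26 over 45, with 9 under 0.5, against 1.01 over 161. Low-numbered slopes under 0.5 numbered 35 of 222 in the nucleus accumbens, 31 of 142 in the EDL and 19 of 161 in the soleus. Part of the low-numbered medians near 1 is by construction, since their own probes give the brightness. The value in the EDL rested on its dimmest array. Without low-active mouse 195 the late-numbered median there was 0.59, with 22 of 44 under 0.5, and the low-numbered one 0.92, with 26 of 142. In the nucleus accumbens the late-numbered median was 0.35 without the brightest array, that of high-active mouse 223, and 0.05 without the dimmest, that of low-active mouse 195, while the low-numbered one was 0.75 and 0.84. In the soleus it stayed between 1.13 and 1.33 without each array in turn.

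The medians were also taken at like signal and by base content. Among miRNAs under a log2 signal of 8, the medians were 0.25, 1.26 and -0.01 for the late-numbered miRNAs in the nucleus accumbens, soleus and EDL, and 0.78, 1.01 and 0.87 for the low-numbered ones. Late-numbered miRNAs with up to 60% and over 60% G and C had medians of 0.34 and 0.19 in the nucleus accumbens, 0.99 and 1.39 in the soleus, and -0.00 and 0.00 in the EDL. Without low-active mouse 195 the EDL medians were 0.48 under a log2 signal of 8, against 0.95 for the low-numbered miRNAs, and 0.85 and 0.23 for the lower and higher G and C content.

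Over all 6 EDL arrays the slopes fell into a larger part near 0 and a smaller part near 1. 9 of 44 were over 0.5: miR-3963 (0.81), miR-3096b-3p (1.07), miR-1949 (1.14), miR-3107-3p (1.15), miR-3968 (1.26), miR-5100 (1.28), miR-3069-3p (1.37), miR-3107-5p (1.44) and miR-5097 (1.44). They were named after their values were seen. Without low-active mouse 195, 22 of 44 were over 0.5, and of these 9 miR-3107-3p (0.31) and miR-3107-5p (0.23) were not. miR-3963, miR-3968 and miR-5100, the miRNAs with AUCCCA, then had 1.78, 2.66 and 2.42. In the soleus these 3 had slopes of -0.48, -0.63 and -1.34 over all 6 arrays, and of 0.46, 0.87 and 0.30 without the dimmest array, that of high-active mouse 223. miR-5109, with a slope of -0.02 in the EDL (0.23 without mouse 195) and 0.10 in the nucleus accumbens, had 1.12 in the soleus.

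A signal that does not follow the array comes out high on dim arrays once the array is scaled. In the EDL 33 of 44 late-numbered miRNAs had their highest scaled level on the dimmest array, that of low-active mouse 195. In the nucleus accumbens 27 of 37 had their lowest on the brightest array, that of high-active mouse 223, and 18 had their highest on the dimmest, that of low-active mouse 195. In the soleus 10 of 45 were highest on the dimmest and 8 lowest on the brightest array. The same counts were not taken for other miRNAs, so they show no trait particular to the late-numbered ones.

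**Figure D4:**
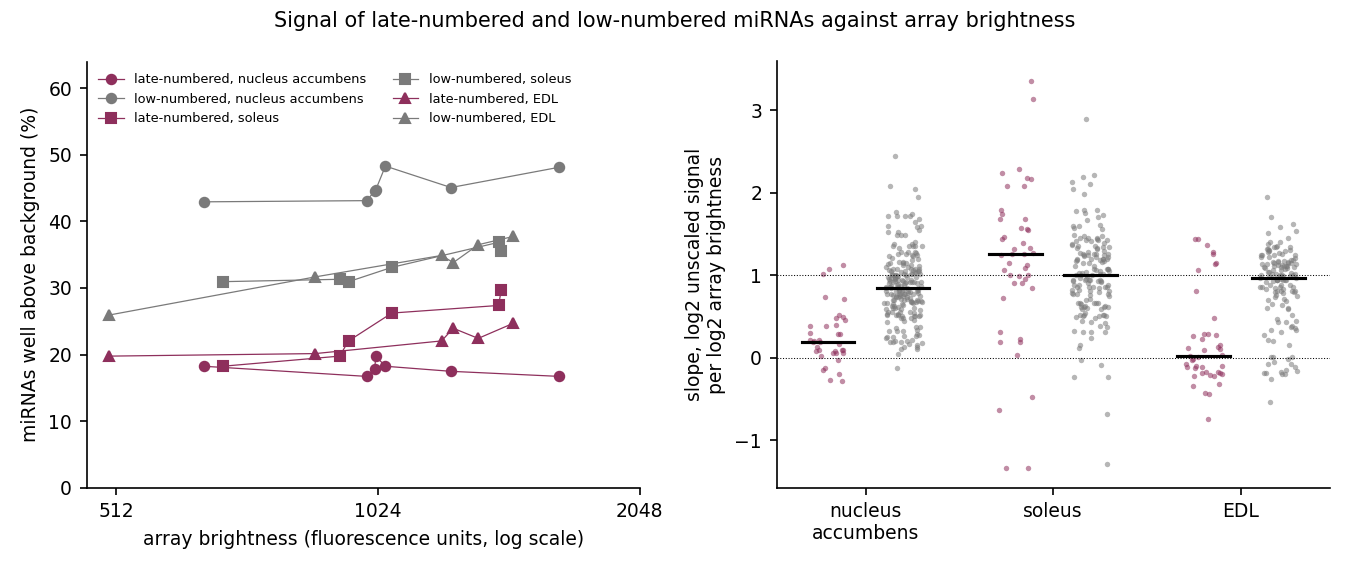
Left, share of miRNAs well above background (vertical axis, percent) against array brightness (horizontal axis, fluorescence units, log scale), a point per array, with lines joining the arrays of a tissue in order of brightness. Right, slope of each miRNA's unscaled log2 signal on log2 brightness, a point per miRNA found on every array of the tissue, with medians as bars and late-numbered miRNAs to the left of low-numbered ones in each pair. The late-numbered medians are 0.20, 1.26 and 0.02 in the nucleus accumbens, soleus and EDL, and the low-numbered ones 0.85, 1.01 and 0.97. Without the dimmest EDL array the late-numbered median there was 0.59.

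Few late-numbered miRNAs passed a test between the strains. Their share found did not pass one in any tissue. It was 17.2% ± 0.57 (SD, n = 4) in high-active and 18.8% ± 0.88 (n = 3) in low-active nucleus accumbens, a difference of -1.55 points (exact two-sided permutation p = 0.0571, smallest possible 0.0286). In the soleus it was 21.6% ± 3.48 (n = 4) and 28.5% ± 1.61 (n = 2), and in the EDL 21.3% ± 1.61 (n = 2) and 22.6% ± 2.21 (n = 4). These differences of -6.94 and -1.33 points had exact permutation p of 0.133 and 0.6, where 0.0667 is the smallest possible. In the soleus no high-active array reached the low-active ones, which were also the brightest. In the nucleus accumbens the sign followed the detection rule, and the difference was 0.127 points with at least 90% of spots required.

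For single miRNAs the arrays were scaled within each tissue and limma was run on all miRNAs found on at least 3, 2 and 2 arrays. In the nucleus accumbens 2 of 52 late-numbered miRNAs passed, both lower in high-active mice, where 6.91% of all 391 tested passed. miR-3099-3p had 6.95, 6.78, 6.88 and 7.61 in high-active mice 224, 227, 223 and 225, and 7.83, 7.97 and 8.10 in low-active mice 197, 195 and 194. The groups did not overlap, and the difference was -0.91 (SE 0.21, adjusted p = 0.0468). miR-3107-5p had 5.86, 6.36, 6.54 and 6.88 against 7.54, 7.23 and 8.15 in the same order, again without overlap, and differed by -1.23 (SE 0.29, adjusted p = 0.0488).

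Within slides the differences of miR-3099-3p were -0.36 (slide 2) and -0.96 (slide 3), and those of miR-3107-5p -0.34 and -1.29. Neither passed with the slide as a block, and of the 7 arrays only leaving out that of high-active mouse 225 kept either. The sum of the epithelial markers varied over the same arrays from 7.37 to 14.3. Of that list of 7, miR-203-3p was on every nucleus accumbens array and miR-205-5p on none, and miR-200a-3p ranged from 4.41 to 12.96. The red-cell miRNA miR-451a stood at 10.80, 10.94, 12.19 and 11.62 in high-active mice 224, 227, 223 and 225 and at 12.83, 11.84 and 13.61 in low-active mice 197, 195 and 194. The groups overlapped, and miR-451a and miR-3107-5p were both lowest in mouse 224 and highest in mouse 194. The other red-cell marker measured, miR-144-3p, was found on 2 of the 7 arrays. miR-486-5p, also on the red-cell list, had no match by name on the array, and the Mir3107 gene lies wholly inside Mir486. The part of epithelium or blood in these differences was not tested.

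miR-5117-5p was found on all 4 high-active and none of the 3 low-active nucleus accumbens arrays, at least 2.33-fold higher, and missed the threshold (adjusted p = 0.0612). In the soleus it was again found on 4 of 4 and 0 of 2 arrays, at least 1.76-fold higher (adjusted p = 0.296). miR-5103 was found on 0 of 4 and 3 of 3 nucleus accumbens arrays (adjusted p = 0.175). Each of these miRNAs entered the tests only through the strain in which it was found.

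In the soleus 2 of 75 passed, where 1.17% of all 342 did, and both lay near the level to which low signals were set (4.60). miR-3075-5p had 4.60, 4.83, 4.60 and 4.62 in high-active mice 223, 224, 227 and 225, and 5.69 and 5.55 in low-active mice 194 and 195. It was found on 1 of the 4 high-active arrays, so the fitted difference of -0.96 (adjusted p = 0.0212), and those of -0.93 and -0.97 within slides 1 and 2, are measured against values at or next to that level. With normexp background correction its difference turned to 0.10. miR-1957a was not well above background in any high-active mouse and had 5.55 and 6.05 in the low-active ones, at least 1.98-fold higher (adjusted p = 0.0345). It entered the test through the low-active arrays alone, so this p carries no weight for the direction. Neither passed with the slide as a block. miR-1940 and miR-5118 had adjusted p of 0.053. The 2 low-active arrays were the higher and the brighter ones for all 4, and strain and brightness cannot be told apart in the soleus.

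In the EDL 0 of 63 late-numbered miRNAs passed in limma, where 0.303% of all 330 did, and 3 had an unadjusted p under 0.05. The smallest p was that of miR-5128, at 6.99 and 7.49 in high-active mice 225 and 227 and at 8.94, 9.01, 9.45 and 10.88 in low-active mice 197, 196, 194 and 195 (difference -2.33, SE 0.56, adjusted p = 0.299). The groups did not overlap. The highest value is again that of the dimmest array.

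**Figure D5:**
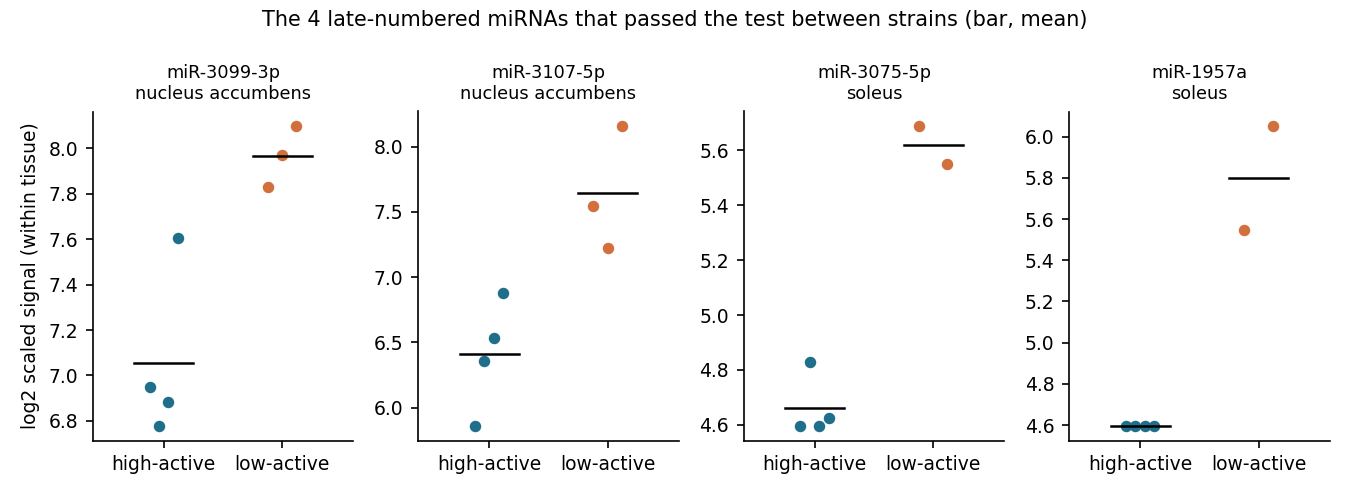
Log2 signal scaled within the tissue (vertical axis, a different range in each panel) of the 4 late-numbered miRNAs that passed between strains. Each point is an array and the bars are means. In all 4 panels every low-active array lies above every high-active one, and in the soleus panels the high-active arrays lie at or near 4.60, the level to which low signals were set.

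The strain difference was also compared between tissues with an interaction term. Of the 67 late-numbered miRNAs tested, 0 passed for nucleus accumbens against soleus, where 4.18% of all passed, 0 for nucleus accumbens against EDL, where 2.70% did, and 0 for soleus against EDL, where 0.246% did. At an unadjusted p under 0.05 there were 9, 6 and 2. With the mouse as a random block 3 passed, miR-3102-5p (-1.29, adjusted p = 0.0433, against the EDL), miR-3102-3p (-0.73, adjusted p = 0.0374, against the soleus) and miR-3097-5p (against the soleus). The last was at 4.41 on all nucleus accumbens arrays, so its term holds the strain difference of the soleus alone. The share of all miRNAs that passed with this block was not taken, so the count of 3 shows no trait particular to the late-numbered ones.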

How the data were processed

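RNA was labelled with cyanine 3 and hybridised to 1-colour Agilent mouse miRNA arrays. The deposited scanner files hold background-subtracted spot intensities, not normalized between arrays, raw intensities and flags. The authors' table of deposited log2 values, after a percentile shift in GeneSpring, holds 101 late-numbered miRNAs in the accumbens, 101 in the soleus and all 263 in the EDL, and was used as an alternative. The authors chose samples by RNA quality and dismissed some arrays.

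Here spots were averaged per probe without controls and outlier-marked spots, and arrays scaled by their 75th percentile over probes found on all arrays. Lower signals were raised to the dimmest found probe's signal (its median across arrays) and log2 was taken, with each miRNA read from its brightest probe. limma 3.58.1 in R 4.3.3 (Benjamini-Hochberg over all miRNAs tested, adjusted p under 0.05) was used within tissues for strains and over all 19 arrays for tissues, and was tested on simulated data. Shares and correlations used exact permutation tests in scipy 1.17.1. With no mean spot signal in the files, the normexp alternative used medians. Within a group each array is a separate mouse, and mouse numbers in the titles pair the tissues of an animal (block correlation 0.107).

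The miRNAs named were mostly drawn from those that passed between strains or had the 5 smallest p per tissue, the 10 brightest, the 5 largest tissue changes each way, the study's own strain list, and those on every array. Not all of these are described, and some others are named for where they were found. Of the study's strain list, miR-1960 was found on 1 array, miR-1967 on 3, miR-1966-5p on 4 and miR-3091-5p on 0. Members, lists and rule were chosen with earlier results of these data known. RefSeq positions are on GRCm38.p6, not the files' build.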

Additional observations from a re-analysis of the deposited data

Results flagged for a closer look

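In groups of 4 arrays, the highest or lowest array was compared with the other 3 by its gap to the nearest one, divided by the range of the group. Of 125 such sets of late-numbered levels, shares and brightness values 10 passed Dixon's critical value, where chance gives about 1 in 20. In the high-active soleus, mouse 223 stood highest in miR-3963 (17.46 against 16.00 for the next array, a ratio of 0.895) and in miR-3968 (14.44 against 12.46, 0.923), and mouse 225 in miR-5122 (7.66 against 6.34, 0.845). Mouse 224 stood highest in the low-numbered share (33.1% against 31.3%, 0.833).

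In the low-active EDL, mouse 195, the dimmest array, stood highest in miR-1895 (9.00 against 7.61, 0.832), miR-3470a (8.63 against 6.96, 0.903) and miR-5112 (8.34 against 6.97, 0.854). Mouse 196 stood highest in miR-3096b-3p (7.79 against 7.19, 0.869), mouse 197 highest in miR-5097 (10.78 against 9.24, 0.832) and lowest in miR-1927 (4.22 against 5.68, 0.849).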

How the results depend on the processing

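The lower late-numbered share in the nucleus accumbens kept its direction under all 5 other detection rules and member sets (-5.70 to -3.81 points) and without each mouse (-5.70 to -4.50), and so did the gap between the lists (-17.5 to -16.4 without each mouse). Without each mouse, the share differed by 1.52 to 4.94 points from EDL to soleus, and between strains by -1.81 to -1.05, -8.49 to -5.80 and -2.47 to -0.19 points in the nucleus accumbens, soleus and EDL. With at least 90% of spots required, the nucleus accumbens value turned to 0.127. The correlations with brightness ranged without each array from -0.644 to -0.147, 0.909 to 0.964 and 0.831 to 0.883. Against the median of all probes they were 0.0108, 0.797 and 0.425, and with the software's detection the EDL gave 0.758. The median slope on brightness in the EDL, left without each array after seeing the data, ranged from -0.04 to 0.59, the latter without low-active EDL 195.

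The counts between strains rest on few arrays and settings, and the cause was not tested. In the nucleus accumbens (2) they were 0 with the percentile over all probes, no scaling, quantile normalization, the mean of probes, no filter or the slide block, 1 with normexp or at 2-fold, and 4 with a lower floor. In the soleus (2) they were 0 with the percentile over all probes, normexp, the slide block or miRNAs on every array, 1 at 2-fold, 4 with the software's signal or the whole-series table, and 9 with no scaling. In the EDL (0) they were 1 with the percentile over all probes, no scaling, the software's signal or the slide block, and 6 with the whole-series table. Leaving out 1 array gave 0 to 3, 0 to 3 and 0 to 1: 3 without high-active nucleus accumbens 225 and 0 without any other, 3 without high-active soleus 224, 2 without 223 and 0 without any other, and 1 without low-active EDL 195.

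Between tissues, 52, 47 and 8 passed from soleus to nucleus accumbens, EDL to nucleus accumbens and EDL to soleus, and 43 to 53, 37 to 52 and 3 to 19 without each array, with 19 without low-active EDL 195 and 3 without low-active soleus 195. With miRNAs on every array they were 24, 24 and 4. At 2-fold the comparison with the EDL gave 30 and that between muscles 5. The latter also gave 5 with no filter, 20 with no scaling, 13 with quantile normalization and 4 with normexp. Pairing the tissues by mouse as a fixed replicate block gave 49, 43 and 5, and as a random one 52, 48 and 8. Among miRNAs on every array, in settings chosen after seeing the data, the muscles gave 2 with no scaling and 7 without low-active EDL 195, which gave 26 and 27 for the other comparisons. The strain difference between tissues (0) gave 1 with the software's signal or the slide block, 2 with the percentile over all probes, quantile normalization or the mean of probes, 3 with no filter or the mouse as a random replicate block, 14 with no scaling, and 0 to 8 without each array (8 without low-active EDL 195).

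Of 1049 alternative values of 42 named results, 920 kept direction and side of the threshold, 106 lost the call, 13 gained it and 10 turned. With normexp miR-1940 (0.062), miR-3075-5p (0.10) and miR-5118 (0.045) turned between strains in the soleus and miR-3102-3p in the EDL (-0.011). With the software's signal miR-3075-5p (0.54) and miR-3102-3p (-0.85) turned between strains, and miR-3102-3p (-4.24 and -1.95), miR-3962 (-2.73) and miR-5128 (0.55) between tissues.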
